A study of Arabidopsis thaliana with 20 samples.

Results

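A heat shock of 30 min at 45 °C was compared with untreated growth in Arabidopsis thaliana seedlings through the places where chromatin was open to the nuclease DNase I. Members are the peaks (150 bp stretches that release many short fragments) present in 1 list and absent from the other. A gained peak stands in the heat shock list and shares no base with any peak of the untreated list, and a lost peak is the reverse. Of 32755 heat shock peaks 4962 were gained, which is 15.1% (95% Wilson interval 14.8% to 15.5%). Of 34637 untreated peaks 6839 were lost, which is 19.7% (19.3% to 20.2%). Both lists together hold 67392 peaks, and all 7 lists of the study 216961.

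All groups are 7-day-old Col-0 seedlings of the INTACT line UBQ10:NTF::ACT2:birA, in which broadly used promoters drive a nuclear tag and its biotin ligase, so that nuclei are captured from the whole seedling. The compared groups grew in a light/dark cycle (LD, 16 h light at 22 °C and 8 h dark at 20 °C) and were left untreated (LD control) or heated. A further LD group, the spray control, received 0.5% ethanol and a wait of 3 h but no heat, and 4 lists come from dark-grown seedlings before light, 30 min or 3 h after a move to light, or after 24 h of LD. Both sample files of a condition are identical, so every condition counts as 1 library. No difference below has a replicate check or a p-value, and intervals cover counting error over peaks only. The spray control was set against the same LD control list by the same rule: 16.3% of its peaks were gained (5499 peaks) and 18.4% of LD control peaks were lost there (6362 peaks). These shares are close to those of the heat comparison, so what follows gives the spray values beside the heat values; both comparisons share the LD control list.

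DNase I cuts where nucleosomes have been moved aside, mostly at promoters and enhancers bound by transcription factors. In plants, heat shock factors bind heat shock elements and switch on chaperone genes within minutes, and nucleosomes can also be lost along the body of a gene that is transcribed very strongly. A genome-wide stress response also reaches genes of growth, metabolism and hormone signalling, and these, rather than the chaperones, are described here. In whole seedlings, fewer cells of a type and less signal per cell cannot be told apart. HSP101, the ClpB-type chaperone required for acquired heat tolerance, checks the label: its transcribed span touched 8 peaks in the heat shock list and 1 peak in each of the other 6 lists. Of the cell type markers, promoter peaks were found at 3 of 8 root genes in both the heat and LD control lists, at 4 and 3 of 6 guard cell genes, at 4 and 4 of 5 epidermal genes, at 3 and 3 of 7 vascular genes and at 3 and 3 of 4 mesophyll genes.

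The sequences below are peaks that carry the patterns described further on, read along the strand of the named gene from the RefSeq genome TAIR10.1, with motif letters in capitals. They show a peak of the heat shock list alone, in the promoter window of RABA2b and inside a small heat shock protein gene next to it. A coding peak comes from a gene that opened along its span (EGY3), and a lost peak stands with the gained peak upstream of it (TPR2). The others are lost peaks of a promoter that kept another peak (OXS2) and of a gene body (PRXR1).
RABA2b gained, chr1:2275381-2275530, plus strand: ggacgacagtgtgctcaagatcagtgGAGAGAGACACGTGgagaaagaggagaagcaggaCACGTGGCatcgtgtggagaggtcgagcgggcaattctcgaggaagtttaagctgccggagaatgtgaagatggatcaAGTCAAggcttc
EGY3 gained, chr1:6151021-6151170, minus strand: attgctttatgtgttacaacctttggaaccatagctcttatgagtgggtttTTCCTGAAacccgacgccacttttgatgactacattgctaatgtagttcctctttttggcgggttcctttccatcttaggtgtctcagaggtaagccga
TPR2 lost, chr3:5731221-5731370, plus strand: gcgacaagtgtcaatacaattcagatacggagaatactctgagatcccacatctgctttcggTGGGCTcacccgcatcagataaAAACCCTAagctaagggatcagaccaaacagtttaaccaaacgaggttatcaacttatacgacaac
TPR2 gained, chr3:5730981-5731130, plus strand: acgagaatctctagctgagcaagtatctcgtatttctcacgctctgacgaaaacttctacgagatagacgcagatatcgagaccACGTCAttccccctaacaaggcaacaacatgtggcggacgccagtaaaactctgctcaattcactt
OXS2 lost, chr2:17489621-17489770, plus strand: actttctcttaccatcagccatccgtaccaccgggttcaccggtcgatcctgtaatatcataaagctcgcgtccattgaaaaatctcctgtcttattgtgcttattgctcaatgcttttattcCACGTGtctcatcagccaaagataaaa
PRXR1 lost, chr4:11647121-11647270, minus strand: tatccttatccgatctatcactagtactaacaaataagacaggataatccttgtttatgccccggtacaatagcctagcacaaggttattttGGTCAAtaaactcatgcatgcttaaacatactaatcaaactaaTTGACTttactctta
The capitals mark G-boxes (CACGTG), the abscisic acid response element (ACGTGGC, which overlaps a G-box here), GA repeats (GAGAGAGA), W-boxes (TTGACC or TTGACT), TGA elements (TGACGT), site II elements (TGGGCC or TGGGCT), the telo-box (AAACCCTA) and heat shock elements of 2 units (GAANNTTC or TTCNNGAA), each searched on both strands. A match describes the letters and says nothing of what binds there. In the 150 bp upstream of every gene start the G-box stood in 4.78% of windows, the abscisic acid response element in 2.63%, the GA repeat in 3.29%, the W-box in 19.1%, the TGA element in 5.27%, the site II element in 15.6%, the telo-box in 3.04% and the 2-unit heat shock element in 9.61%.

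Most gained and lost peaks were weak ones. Signal, the authors' own number per peak, was ranked within each list only. In the weakest 10% of the heat shock list 50.9% of peaks were gained, and in the strongest 10% only 2.96%. For lost peaks of the LD control list the shares were 65.5% and 2.25%. The spray comparison fell along the same course, from 57.0% to 1.98% for gained and from 68.4% to 1.56% for lost peaks. Among strong peaks heat stood slightly above spray: in bin 8 of 10 (weakest first) 4.18% against 3.26% were gained and 4.97% against 3.09% were lost, with intervals that do not overlap for the lost peaks (4.29% to 5.74% against 2.56% to 3.72%). The median gained peak stood at percentile 18.1 of its list and the median lost peak at 17.7, against 55.6 and 57.9 for the retained peaks of the heat and LD control lists. At the edge of the rule, 101 heat shock peaks without overlap had their nearest LD control peak at 20 bp or less, with a median percentile of 38.1, and 126 that overlapped one by at most 20 bp had a median of 37.4. The edge was thus thinly filled: the median gained peak lay 531 bp from the nearest LD control peak, and the median lost peak 631 bp from the nearest heat shock peak.

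**Figure D1:**
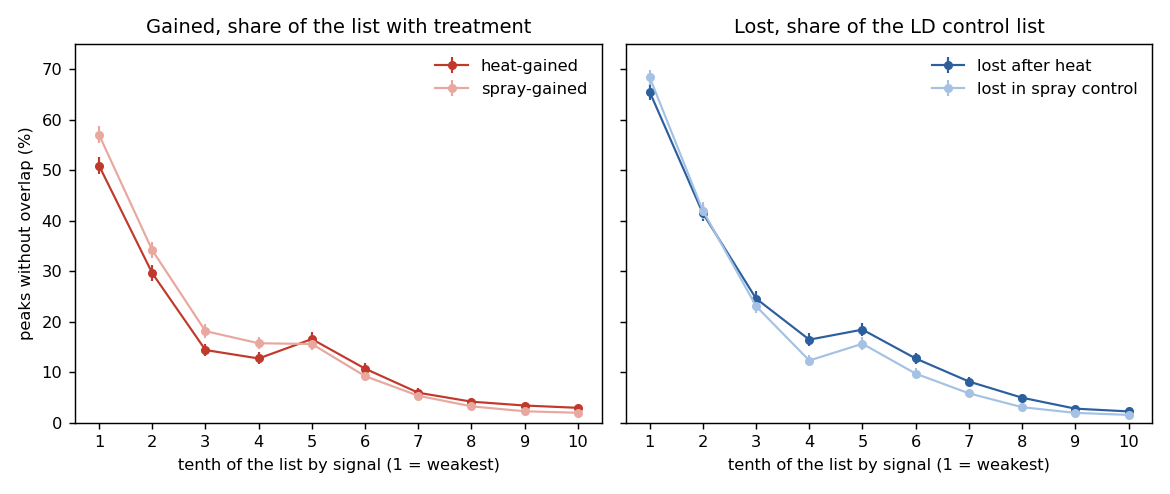
Share of peaks without overlap (%, 95% Wilson intervals) in 10 bins of a list by signal, with gained peaks on the left (heat shock or spray control list) and lost peaks on the right (LD control list). Heat-gained peaks make up 50.9% of the weakest bin and 2.96% of the strongest, and the spray curves run close to the heat curves.

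Gained and lost peaks lay in different places. Of gained peaks 35.2% were intergenic (midpoint outside genes and outside the promoter window, here the 1000 bp before a gene start and the 200 bp after it), against 17.4% of lost peaks and 25.4% of retained heat shock peaks. Coding sequence (CDS) held 10.1% of gained, 16.6% of lost and 3.02% of retained peaks. Lost peaks were also more frequent than gained ones in 3′ UTRs (8.01% against 3.73%) and 5′ UTRs (3.41% against 1.25%). Promoter windows held 42.9% of gained and 45.7% of lost peaks, below the 60.8% of retained ones. The spray comparison had the opposite tilt: 24.8% of its gained and 12.4% of its lost peaks were coding, and 20.3% and 26.4% were intergenic. Among peaks above the median signal of their list the intergenic difference held (33.6% of gained against 17.3% of lost). The coding difference turned, with 8.95% of gained and 5.19% of lost peaks in CDS. Above the median signal the spray comparison had 71 of 747 gained and 14 of 773 lost peaks in CDS. Its coding tilt there thus ran the same way as after heat. Its intergenic tilt stayed opposite to that of heat, with 198 of the 747 gained and 259 of the 773 lost peaks.

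**Figure D2:**
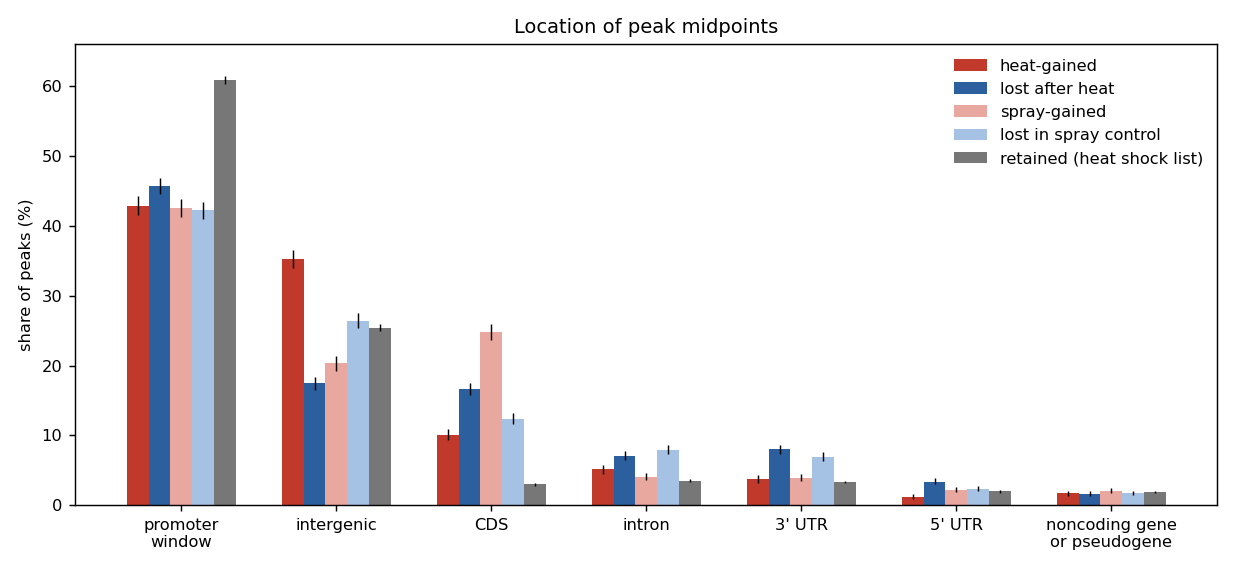
Share of peak midpoints (%, 95% Wilson intervals) by annotated location for heat-gained, lost and retained peaks and for the spray comparison. Heat-gained peaks are the most intergenic set at 35.2% and spray-gained peaks the most coding at 24.8%.

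The same contrast appeared in distance and gene density. Of gained peaks 24.4% lay more than 2000 bp from any gene start, against 16.3% of lost and 16.8% of retained peaks; the spray comparison gave 19.9% for gained and 20.6% for lost. Bins of 500 kb were sorted by the share covered by genes and split into 5 classes. Gained peaks made up 19.6% of heat shock peaks in the gene-poorest class and 12.9% in the gene-richest, while lost peaks made up 18.2% and 21.4% of LD control peaks there. In the spray comparison both shares were higher in the gene-poorest class (22.1% against 15.6% gained, 21.9% against 17.3% lost). Of the 338 spray-gained peaks of the gene-poorest class 84 lie in 1 block of chromosome 2, without which the gained share there is 17.6% (interval 15.7% to 19.6%). The 5 chromosomes were alike, with 14.7% to 15.6% gained and 19.2% to 20.1% lost.

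Base composition and short motifs differed between the sets as well. The median GC content was 34.7% in gained, 37.3% in lost and 37.3% in retained peaks, against 40% in spray-gained peaks and 34.7% in those lost in the spray control. Site II elements, common upstream of ribosomal and other growth genes, stood in 15.1% of gained and 7.25% of lost peaks, both below the 30.1% of retained heat shock peaks. The spray comparison had 11.7% and 8.14%. GA repeats went the other way, with 2.96% of gained and 6.62% of lost peaks, against 4.78% and 4.13% in the spray comparison. G-boxes, read by bHLH and bZIP factors, stood in 4.78% of gained and 4.78% of lost peaks, fewer than the 10.6% of retained ones. W-boxes, bound by WRKY factors, stood in 20.1% of gained, 22.5% of lost and 22.4% of retained peaks. In gained peaks the shares of site II elements, GA repeats, G-boxes and W-boxes are near those of the windows upstream of all genes given above. The 2-unit heat shock element stood in 9.55% of gained, 8.80% of lost and 8.10% of retained peaks. One of 3 units, in which NNGAA or NNTTC carries the 2-unit form on in turn, stood in 0.746% of gained, 0.0877% of lost and 0.255% of retained heat shock peaks, in 0.255% of spray-gained peaks, and in 0.208% of the windows upstream of all genes.

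Peaks shared with the other lists made up a smaller part of gained and lost peaks than of the whole lists. Of gained peaks 40.7% overlapped a peak of the list made 3 h after the move to light, against 78.6% of all heat shock peaks. With the spray control these shares were 30.4% and 80.7%, with the dark list 29.7% and 72.7%, at 30 min 29.9% and 72.4%, and at 24 h 26.7% and 67.3%. Of lost peaks 48.6% overlapped a spray control peak, 31.2% a dark peak, 30.4% a peak at 30 min, 33.8% at 3 h and 27.0% at 24 h, where all LD control peaks had 81.6%, 70.7%, 70.3%, 75.1% and 65.1%. None of these 5 lists overlapped 1895 gained peaks (38.2%), and 224 of these stood above the median signal. Of lost peaks 750 (11%) were present in all 5 other lists, and 2352 (34.4%) stood in the LD control list alone.

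Over transcribed spans the balance went towards loss. Of 27444 protein-coding genes, 4403 (16%) touched a lost peak between their annotated start and end and 1769 (6.45%) a gained one. The spray comparison was near even, with 3270 genes that lost and 3126 that gained a span peak. Counted over all genes, spans touched 0.831 times as many peaks in the heat shock list as in the LD control list, and 0.997 times as many in the spray list. The 339 genes annotated as chaperones or heat shock proteins had 339 span touches after heat, 263 in untreated seedlings and 261 after the spray. Of these 339 genes 227 had as many span peaks after heat as in the LD control. More were seen in 59 of them, with at least 3 more in 19, and fewer in 53. Of all 27444 genes 4592 had fewer. The other 27105 genes had 15735 span touches after heat, 19089 in untreated seedlings and 19032 after the spray. For those 27105 genes the light series had 13323 to 16148, a range that includes the heat shock list. These counts are not adjusted for list length. The light series lists are shorter, with 26712 to 31336 peaks against 32755 after heat, and the LD control list is longer, with 34637.

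**Figure D3:**
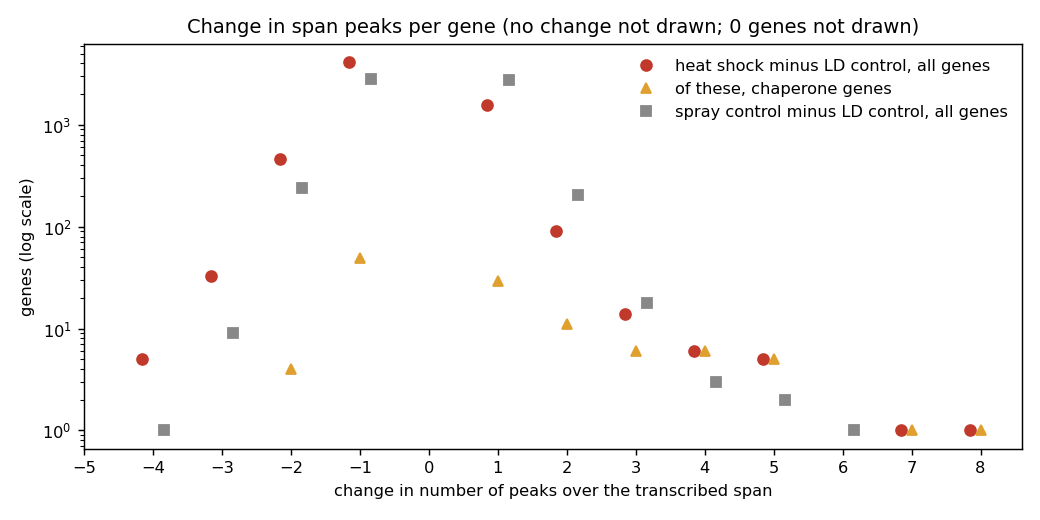
Number of protein-coding genes (log axis) by the change in span peaks, for heat shock minus LD control (all genes and the chaperones among them) and for spray control minus LD control. Genes with at least 2 fewer span peaks number 495 after heat and 252 in the spray control, genes with at least 2 more 117 and 228, and every gene with a gain of 4 or more after heat is a chaperone.

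After heat 38 genes had at least 3 fewer span peaks than the LD control, against 10 in the spray control. None of the 38 is a chaperone, but chaperones are only 339 of 27444 genes. Together the 38 genes held 139 span peaks in the LD control, 20 after heat, 85 after the spray and 54 to 58 in each dark-grown list. In 23 of them no span peak was left. The LD control thus stood above every other list at these genes, and 32 of the 38 also had fewer span peaks in the spray control than in the LD control. Since the 38 were selected on the LD control list, its high counts there are part of the selection.

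Among the genes with the most lost span peaks, MCCA, a subunit of methylcrotonyl-CoA carboxylase in leucine breakdown (chromosome 1, 739544 to 744184), touched 1 peak after heat, 5 in the LD control, 1 after the spray and 1 to 4 in the light series. PAL2, a phenylalanine ammonia-lyase at the entry to phenylpropanoid synthesis, touched 1, 4 and 1, and 1 to 2 in the light series. At PAL2 the LD control is the high list and heat and spray have the same count, as they do at MCCA, where the 24 h list comes next with 4. GOX2, the peroxisomal glycolate oxidase of photorespiration, touched 0, 3 and 1 span peaks, and 0 in all 4 lists of the light series. CPD, a cytochrome P450 of brassinosteroid synthesis, touched 1, 5 and 3. PRXR1, a peroxidase-family gene whose lost intron peak is printed above, touched 2, 6 and 4, with 3 to 4 in the light series. For PRXR1 and CPD the heat list was at or below every other list.

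ABCG25, an exporter of abscisic acid, touched 2 span peaks after heat and 5 in both LD control and spray control, with 3 to 5 in the light series. Chosen after their values were seen, ACO1 (aconitase), CKL2 (a casein kinase) and PKS4 (a phytochrome kinase substrate) each touched 0, 3 and 3. At these 4 genes the spray control kept the LD control count, and at those that follow it lay between heat and LD control. BGAL1, a beta-galactosidase of the cell wall, touched 1, 4 and 3, and GH9B1, an endoglucanase, 3, 6 and 5. Also chosen after their values were seen, AAC1 (the mitochondrial ADP/ATP carrier), ASN1 (asparagine synthetase) and SYP71 (a syntaxin) each touched 0, 3 and 1, and MEE51 (a phosphofructokinase family member) 0, 3 and 2. AT2G14080, an immune receptor of the TIR-NBS-LRR class, touched 0, 4 and 2, and AT5G45490, a P-loop nucleotide hydrolase, 1, 5 and 4.

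Gains of 3 or more span peaks were seen in 27 genes, of which 18 are chaperones and 9 are not. No gene with 3 or more lost span peaks (32 genes) is a chaperone. With 339 chaperones among 27444 genes, a set of 32 would hold few or none by its size alone. At least 1 lost span peak was touched by 50 of the 339 chaperones and by 4403 of all genes (16%). AT5G12110, a beta subunit of translation elongation factor 1 (chromosome 5, 3914468 to 3916896), touched 4 peaks after heat, all gained, 1 in the LD control and 0 in each of the other 5 lists, and its promoter went from 0 peaks to 1. BRX, a regulator of root growth at the plasma membrane, and RIN3, a ubiquitin ligase that interacts with the immune receptor RPM1, each touched 3 peaks after heat and 0 in all other lists. AT5G47830, of unknown function, touched 3 after heat, 1 at 24 h of LD and 0 elsewhere. AT3G07090, a predicted thiol peptidase, went from 1 to 4. EGY3, a chloroplast relative of site-2 proteases chosen after its values were seen, touched 3 after heat (2 of them gained, 1 printed above) and 0 in the other 6 lists. The peak that is not gained lies at -148 to 1 bp from the gene start, so it touches the span only by its edge. It overlaps the LD control promoter peak at -208 to -59 bp. SCPL13, a serine carboxypeptidase-like gene, also rose from 2 to 5, but the light series had 3 to 4 there.

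Some of these gains lay close to a chaperone gene. AT1G59865 (0 to 3 span peaks) lies 63 bp from the small heat shock protein gene AT1G59860, and RIN3 lies 227 bp from the chaperone gene AT5G51440. Within 1000 bp of the 18 chaperone genes with 3 or more gained span peaks lie 25 other genes. Of these, 10 had a gained promoter peak (40%, against 8.7% of all genes) and 11 a gained span peak (6.45% of all genes). The 18 were selected for their gained peaks, and a neighbour's window or span can hold the same peaks. A high share among the neighbours is thus partly built in by the selection. AT1G16022, 110 bp from Hsp70b, and AT3G25240, 863 bp from the co-chaperone gene ROF1, each had 3 promoter peaks after heat and 0 in the LD and spray controls. A peak next to a chaperone gene cannot be given to either gene from its position. The nearest annotated chaperone is 780822 bp from BRX, 101872 bp from EGY3, 101451 bp from AT3G07090 and 29630 bp from AT5G12110.

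**Figure D4:**
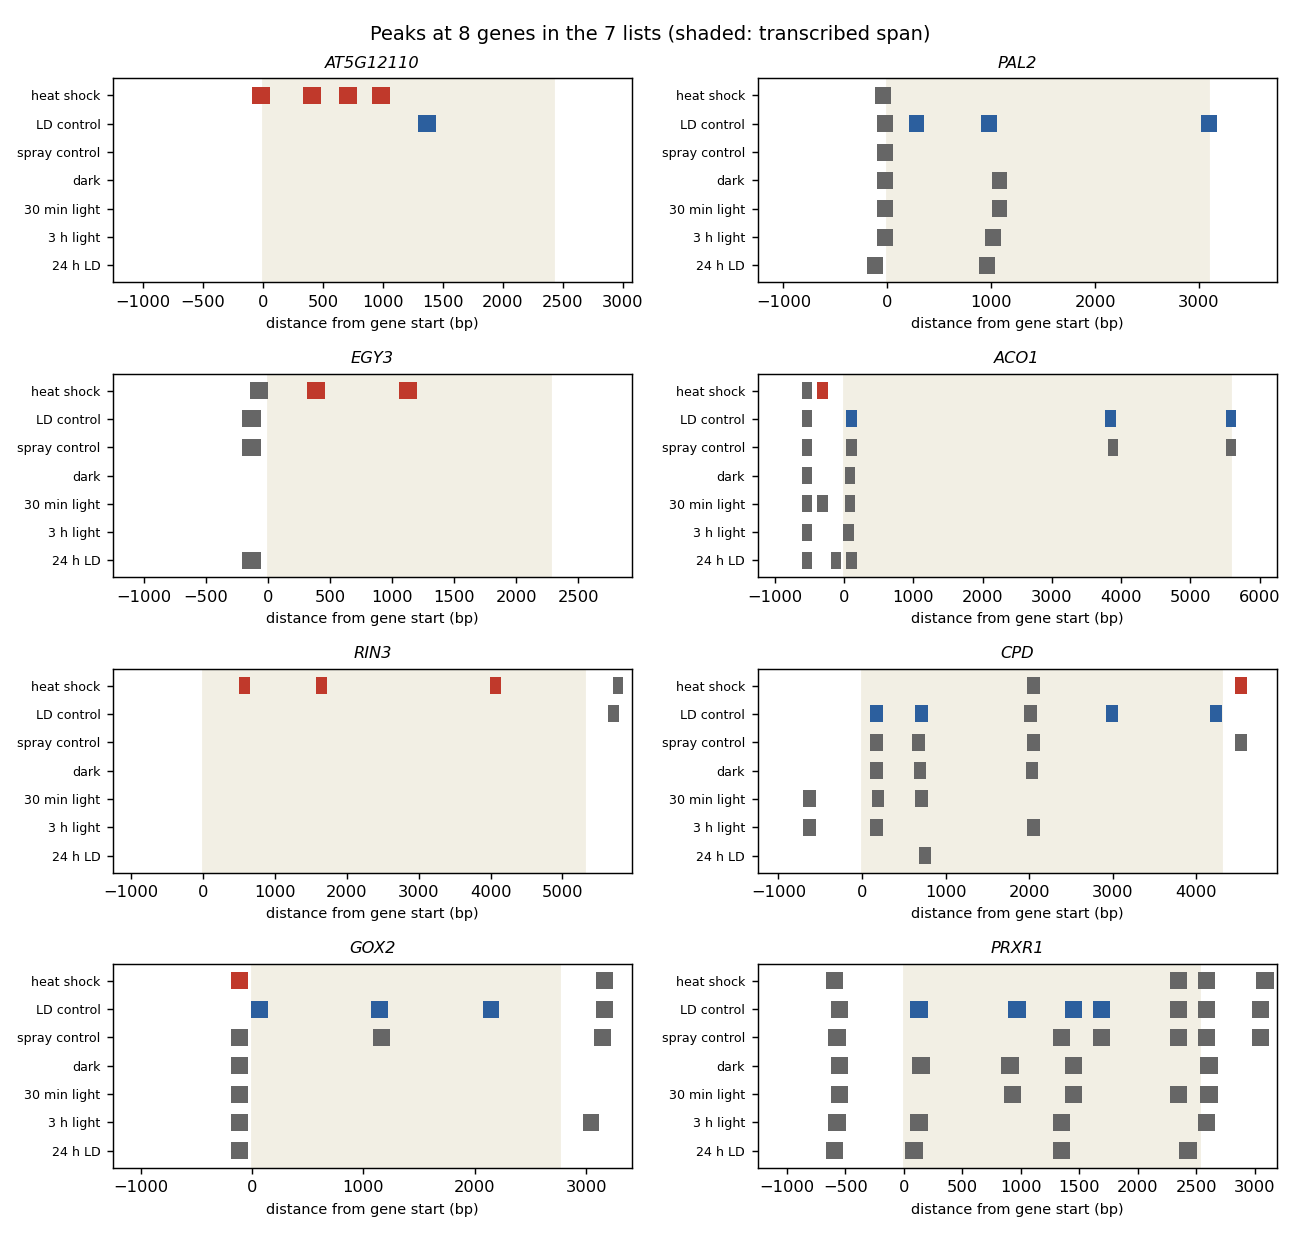
Peaks of the 7 lists at 8 genes, by distance from the gene start (bp) along the gene's strand, with the transcribed span shaded, gained peaks red, lost peaks blue and other peaks grey. AT5G12110, EGY3 and RIN3 hold 4, 3 and 3 span peaks after heat, and GOX2 and ACO1 hold 3 in the LD control and 0 after heat. At EGY3 1 of the 3 is a promoter peak that touches the span only by its edge.

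Neighbouring gained peaks also formed long runs, in which no retained peak lies between them. The longest gained runs held 8 peaks, at HSP81-2 and at ROF1 with AT3G25240, followed by 7 at HSP101 and 6 at 4 places. Of these 4 places, 2 hold no chaperone: a run over 26870 bp on chromosome 3 from AT3G24240, a leucine-rich repeat kinase gene, to the ammonium transporter gene AMT1;5, and a run over 9530 bp at TPPD, a trehalose-phosphate phosphatase gene. Their peaks were weak, with median percentiles of 16.3 and 12.0, against 87.9 at HSP101. Lost runs were shorter, with 8 runs of 5 peaks, among them MCCA, PAL2, CSY2 with AT3G58760, and the neighbours HCF244 and IDH1, which serve photosystem II assembly and the citrate cycle. The spray comparison had lost runs of up to 7 peaks and a gained run of 84 peaks, which fill 1 block of 382950 bp on chromosome 2 (3244681 to 3627630, median percentile 61.4). In that block the heat shock and LD control lists have 0 peaks and the light series 70 to 79 per list, so it adds nothing to the gained and lost peaks of heat. Left out, which was chosen after seeing the data, the block takes spray-gained peaks from 5499 to 5415 (16.1%) and those above the median signal from 747 to 692. The coding share is then 24.9% and the intergenic one 20.5%.

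In promoter windows 2389 genes (8.7%) had a gained peak and 3610 (13.2%) a lost peak, and 706 had both, against 2682, 3028 and 539 in the spray comparison. Promoters without a peak in the LD control gained 1 or more in 837 genes, of which 523 have none in the spray control. Promoters lost all their peaks in 1309 genes, of which 803 kept a peak in the spray control. Few of these are strong: 36 opened and 59 closed genes rest on peaks above the median signal. The spray comparison had 713 opened and 1242 closed promoters.

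Among opened promoters, RABA2b, a small GTPase of trafficking between Golgi and plasma membrane, had 2 promoter peaks after heat and 0 in all 6 other lists. Its strongest, with signal 1167 (percentile 93.0), is printed above and lies inside the neighbouring gene AT1G07400, a small heat shock protein gene, 247 bp from RABA2b. AT5G52670, a copper transport family gene 8339 bp from a chaperone gene, had 1 peak (762) after heat and 0 in all other lists. That peak lies 200 bp from a lost peak (609) in the promoter of the neighbouring gene AT5G52660, which the spray control keeps. AT1G07680, of unknown function, and ECA4, a calcium-pumping ATPase of the endomembranes, share a gained peak with signal 1804, and AT1G07680 also has a promoter peak in the spray control and at 3 h of light. HKL1, a hexokinase-like regulator, had 2 promoter peaks after heat (strongest 612), 0 in the LD control and 2 in every other list, so the LD control is the list that stands alone. PCME, a prenylcysteine methylesterase (905), and Rap2.6L, an ERF-type factor (607), likewise have promoter peaks in the spray control.

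Among closed promoters, AT5G62280, of unknown function, had 2 peaks in both the LD and the spray control (strongest 722), 1 in the dark, and 0 after heat and in the rest of the light series. AT5G02760, a type 2C protein phosphatase, lost a peak of signal 779 that is present in the spray control and the dark. BCA5, a beta carbonic anhydrase (726), NET4B, an actin-binding protein (669), and AT5G25210 (688) each had 1 promoter peak in all 6 lists other than heat shock and 0 after heat. The gene with the strongest closed promoter, AT3G12190, lost a peak of signal 1011 and has none in the spray control or the dark.

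OXS2, a zinc finger protein that moves to the nucleus under stress, lost a peak of signal 2241 (percentile 99.2, printed above) and gained none: its promoter window held 2 peaks in every list but heat shock, which held 1. At AT5G14110, annotated as a peroxidase, a peak of signal 1830 was lost with no gain. ACR8, an amino-acid-binding ACT repeat protein, lost 2 promoter peaks (strongest 2266) and gained 1 (1774). ftsh4, the mitochondrial protease FTSH4, gained a peak of signal 1837 and lost none, and had 2 promoter peaks in the spray control as well.

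Gained peaks next to a lost peak were shifted upstream more often than downstream. Of all gained peaks 709 (14.3%) had a lost peak within 300 bp, against 10.6% in the spray comparison, and among those above the median signal the shares were 27.2% and 19.5%. In 349 pairs inside a promoter window the gained peak lay upstream of the lost one in 242 (69.3%, interval 64.3% to 73.9%). In the spray comparison it did so in 116 of 256 pairs (45.3%, 39.3% to 51.4%). A window of 500 bp on either side of the gene start, which favours neither direction, gave 222 of 305 (72.8%) after heat and 91 of 220 (41.4%) in the spray comparison. Where the spray control kept a peak at the LD control position, 113 pairs pointed upstream and 36 downstream (75.8% upstream). The median offset was 200 bp, from a smallest of 160 bp to the largest allowed, 300 bp. The smallest is near the limit of the rule too, since peaks of 150 bp that share no base cannot have closer midpoints than 150 bp. The spray pairs had the same median and range, so the size of the offset does not set heat apart.

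At the 4 pairs with the strongest peaks (LBD37, TPL, RAV1 and ACR8) the spray control also has a peak at the gained position, and at TPL and RAV1 it has none at the LD control position. At TPR2, a co-repressor of the TOPLESS family, the peak with signal 1949 whose midpoint lies 224 bp upstream of the gene start was lost and a peak with signal 1462 lay 240 bp further upstream, as printed above; the spray control kept the LD control position. At HB-1, a homeodomain leucine zipper factor, the gained peak lay 180 bp upstream of the lost peak (1807 lost, 1333 gained). The same offset was seen at AT3G61260, a remorin of the plasma membrane (1648 and 1498), and at KAK, a ubiquitin ligase that limits trichome branching (1407 and 1381). At all 3 the spray control kept the LD control position. The gained peak lay 220 bp upstream at A/N-InvC, an invertase, and 260 bp upstream at RCA, Rubisco activase. The opposite direction was seen at ERF15, an ethylene response factor (220 bp downstream), and at TEM1, a repressor of flowering (200 bp downstream). KAK, A/N-InvC, RCA and TEM1 were chosen after their values were seen.

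By function, 8881 genes (32.4%) were placed in 77 groups by product name or symbol. The median group had a gained promoter peak in 9.62% of its genes and a lost one in 13.2%, beside 8.7% and 13.2% of all genes. Gained shares were above the value of all genes in 43 groups and below it in 34, with the whole interval above it in 11 and below it in 3. For lost peaks the interval lay above in 8 and below in 6. The spray comparison gave 7 above and 5 below for gained, and 8 above and 2 below for lost, so groups outside the value of all genes were about as frequent without heat. Over all genes lost promoters outnumber gained ones, so a group with more losses than gains does not by that alone differ from the rest. Groups also differ in how many of their genes have a promoter peak at all. In the LD control 69.9% of all genes had one, and the share is given below for some groups.

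Of the transcription factor families, bHLH, MYB, Dof and B-box genes had gained shares whose intervals lie above 8.7%. Homeobox genes (6 of 93 gained, 17 lost) and MADS-box genes (6 of 121 gained, 6 lost) had lower shares, but their intervals include 8.7%. The spray comparison gave 8 gained and 20 lost for homeobox genes, and 5 and 7 for MADS-box genes. Only 43.0% of MADS-box genes had an LD control peak. Of 135 basic helix-loop-helix (bHLH) genes 23 had a gained and 23 a lost promoter peak, against 20 and 33 in the spray comparison, and 73.3% had an LD control peak. ICE1, which activates cold response genes, gained a peak (428) and went from 1 promoter peak to 2. HFR1, a light signalling factor, gained (464) and lost (380) a peak, and HBI1, a growth-promoting factor, lost a peak (644) and went from 3 promoter peaks to 1, with 1 in the spray control. Of 273 MYB genes 34 gained and 28 lost, against 24 and 28 in the spray comparison. MYB43 gained a peak of signal 592. Of 32 Dof genes 7 gained and 6 lost; CDF1, a flowering-time repressor, gained a peak of signal 676.

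Hormone-related groups held both directions, beside 8.7% of all genes with a gained and 13.2% with a lost promoter peak. Of 78 SAUR genes, small auxin-induced proteins of cell expansion, 13 gained (16.7%) and 19 lost (24.4%). The spray comparison gave 8 and 21, and 75.6% had an LD control peak. AT1G75580 and AT1G29460 each gained (664 and 561) and lost (811 and 1062) a promoter peak, and SAUR29 lost its only promoter peak (661), which the spray control kept. Of 11 JAZ genes, repressors of jasmonate signalling, 3 gained (27.3%) and 1 lost (9.09%), against 1 and 1 in the spray comparison. JAZ1 gained a peak (359), going from 2 promoter peaks to 3. The gibberellin genes GA20OX2 and GA3OX1 encode successive steps of hormone synthesis. GA20OX2 gained a peak (236) while GA3OX1 lost 3 span peaks, of which 1 is its promoter peak (330), and gained a span peak (645). The promoters of both have no peak in the spray control. Of 45 Aux/IAA and ARF genes 5 gained and 2 lost, and of 29 ARR response regulators 2 gained and 3 lost. Of 82 abscisic acid receptors and type 2C phosphatases 5 gained and 12 lost. The intervals of these groups include the values of all genes in both directions.

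Leucine-rich repeat kinases, MAP kinases and calcium sensors had lost shares above that of all genes. Of 124 calmodulins and EF-hand proteins 28 lost and 11 gained a promoter peak, against 14 and 13 in the spray comparison, and 98 of the 124 had an LD control peak. CAM9, a calmodulin, lost a peak of signal 681 and went from 3 to 2. Of 181 leucine-rich repeat kinases 35 lost and 19 gained, against 32 and 25. BRI1, the brassinosteroid receptor, lost a peak (1253) and gained another (647), and CLV1, which limits stem cell number, lost a peak of signal 1053. Of 48 MAP kinase pathway genes 11 lost and 8 gained, against 6 and 6. MPK9 lost a peak of signal 1432 and kept 1 of 2, while the spray control kept 2.

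The groups of fatty acid and wax, of expansin and XTH, and of class III peroxidase genes also had lost shares above that of all genes. Of 71 fatty acid and wax genes 19 lost and 7 gained, against 10 and 7 in the spray comparison. KCS1, which elongates fatty acids for cuticular wax, lost a peak (393) and FAB1, of plastid fatty acid elongation, lost one (503), each with 1 of 2 promoter peaks left. Of 69 expansin and XTH genes, which loosen or rebuild wall polymers, 15 lost and 10 gained, against 6 and 7. EXPA10 lost a peak (641), EXPA8 gained one (349) and XTH25 did both (887 lost, 374 gained). Of 76 class III peroxidases 17 lost and 9 gained, the same counts as in the spray comparison, and 52.6% had an LD control peak. Of 56 glutathione transferases, which conjugate glutathione to toxic compounds, 8 gained and 3 lost, against 16 and 6; GSTU2 gained a peak of signal 648. The JAZ and glutathione transferase groups were the only 2 of 77 with more span peaks after heat than in the LD control (14 against 12 and 47 against 40). Of the others 73 groups had fewer and 2 as many. In the spray control the JAZ genes had 12 span peaks. The glutathione transferases had 50 there, above their count after heat. In the spray comparison 37 groups had fewer and 34 more.

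The MATE and major facilitator families of transporters had gained shares above that of all genes. Of 55 MATE efflux transporters 10 gained and 3 lost, against 6 and 4 in the spray comparison, and 61.8% had an LD control peak. AT4G23030 had the strongest gained peak (434). Of 130 major facilitator genes 23 gained and 21 lost, against 13 and 16. PMT6, a polyol transporter, lost a peak of signal 1678 and gained one of 932, and ERD6, a sugar transporter named for its induction by drying, gained a peak (811) and lost 2 (strongest 1148). Of 37 aquaporins 5 gained and 8 lost: PIP2A lost a peak (877) and gained one (433) while keeping 3 promoter peaks.

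In the groups of ribosomal proteins, F-box proteins, and defensins and thionins, both promoter shares were below those of all genes. Of 379 ribosomal protein genes 18 gained (4.75%) and 32 lost (8.44%), although 89.4% had an LD control promoter peak. Of 653 F-box genes, the variable subunits of ubiquitin ligases, 27 gained and 37 lost, but only 45.3% had an LD control peak. Defensins and thionins had 26 gains and 44 losses in 486 genes, 50.2% of which had an LD control peak. FBS4 is the F-box gene with the strongest gained peak, at signal 1368.

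**Figure D5:**
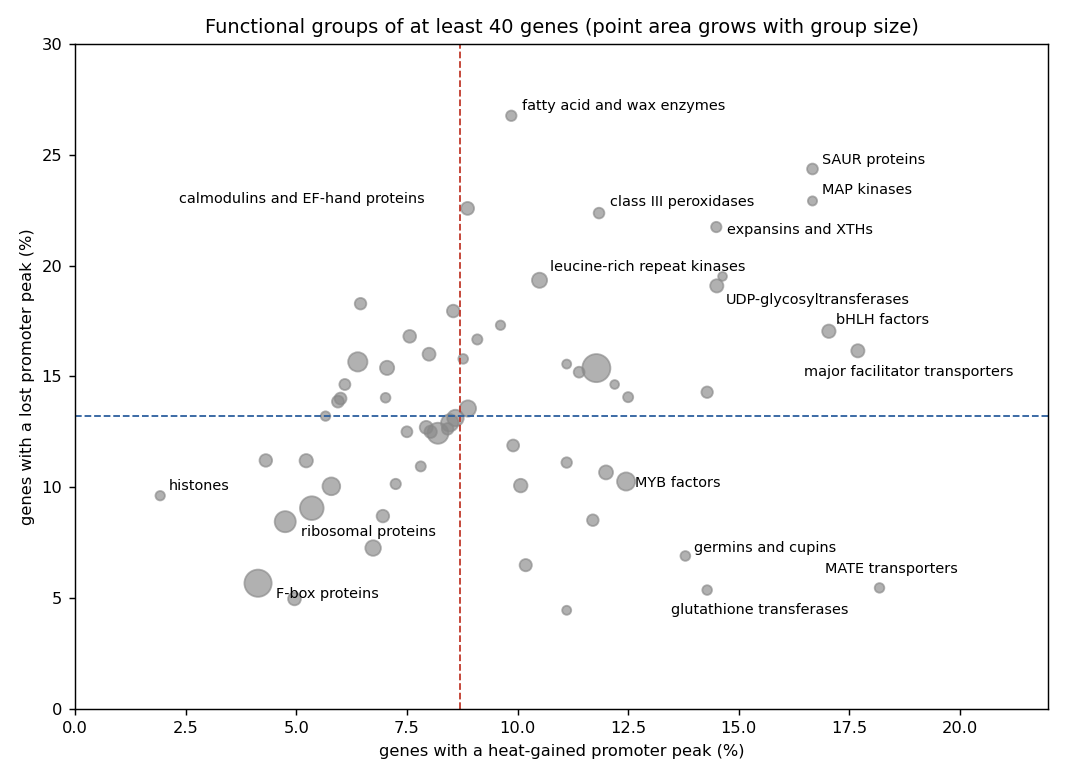
Share of genes with a heat-gained (x axis, %) and with a lost (y axis, %) promoter peak for the functional groups with at least 40 genes, with dashed lines at the shares of all genes (8.7% and 13.2%). Fatty acid and wax enzymes have the highest lost share (19 of 71 genes), MATE transporters the highest gained share (10 of 55), and F-box and ribosomal genes are low on both axes.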

How the data were processed

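DNase I-seq was done on captured seedling nuclei. The submitters' processing notes name Bowtie 0.12.7, CASAVA 1.8.2 and the genome build TAIR10. For the peak caller, its threshold and read filters the sources used here give nothing, and they do not say which samples were subsampled to equal depth, so depth is unknown. The deposited files hold a signal (a whole number, 106 to 25081 after heat and 98 to 23786 in the LD control, with no normalization stated) and a −log10 p-value per peak, which in the deposited lists ends at 324 for 32.8% of heat and 31.9% of LD control peaks and was not used for ranks. In the spray control list the signal ran from 320 to 69430. Its median was 1036 there, against 424 after heat and 417 in the LD control, so the spray list lies on a higher scale. The reason is unknown, which limits a like-for-like reading of the spray values. Signal was ranked within a list and not compared between lists. The 14 DNase I-seq samples gave 7 lists; the 6 RNA-seq samples are not analysed here.

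Genes and sequences came from RefSeq TAIR10.1 (27444 nuclear protein-coding genes). A shift of all peaks by 5000 bp took the share of midpoints in promoter windows from 58.1% to 28.1% (heat) and from 57.6% to 28.4% (LD control). Peaks were compared by overlap of at least 1 bp; a midpoint in a promoter window was placed there first, and any other by gene feature. Counting was done in Python 3.11.15 with pandas 2.3.3 and statsmodels 0.14.6, and tested on simulated lists. With 1 library per condition there is no test; intervals are 95% Wilson and peaks are not independent molecules. Alternatives were overlap of 75 bp, sharing within 150 bp, peaks above the median signal, lists of equal length, LD and spray control merged, and a window of 500 bp upstream to 100 bp downstream.

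The comparison, gene groups and lists were chosen with earlier results of these data known. Named genes are, outside the chaperones, up to 3 per group and direction and the 15 overall by signal, those with 3 or more gained and the 15 with most lost span peaks, the 10 strongest opened and closed promoters, and those at the 5 longest runs; others are marked in the text. The result for 1 closed promoter is not reported here.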

Additional observations from a re-analysis of the deposited data

How the results depend on the processing

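Values are given in the order main setting, then overlap of at least 75 bp, sharing within 150 bp, peaks above the median signal, lists of equal length, and LD and spray control merged. Gained peaks made up 15.1% of the heat shock list, then 22.2%, 12.0%, 5.45%, 16.8% and 10.5%; lost peaks made up 19.7% of the LD control list, then 26.4%, 16.9%, 6.22%, 16.8% and 11.8%. With lists of equal length the excess of lost over gained peaks is thus gone, by construction. The gained coding share was 10.1%, then 7.76%, 11.4%, 8.95%, 9.96% and 10.5%, and the lost one 16.6%, then 13.3%, 18.5%, 5.19%, 12.5% and 13.5%, so lost peaks were the less coding only above the median signal. The gained intergenic share was 35.2%, then 31.3%, 36.9%, 33.6%, 35.1% and 37.1%, and the lost one 17.4%, then 18.8%, 16.3%, 17.3%, 18.8% and 16.4%, in the same order under every setting. Genes with a gained promoter peak (2389) moved to 3978 with the 75 bp overlap, 498 above the median signal, 1548 with merged controls and 1577 with the smaller window, and genes with a lost one (3610) to 751 above the median signal and 2045 with merged controls. Genes with 3 or more gained span peaks (27) fell in number to 14 above the median signal. The following alternatives were chosen after seeing the data. Genes with a lost span peak (4403) moved to 619 above the median signal and 2305 with merged controls, genes with at least 2 fewer span peaks (495) to 190 above the median signal and 334 with equal lists, and the upstream share of pairs (69.3%) to 75.8% with merged controls and 64.5% above the median signal. Genes with 3 or more lost span peaks (32) numbered 63 with the 75 bp overlap, 21 with sharing within 150 bp, 0 above the median signal, 7 with merged controls and 21 with equal lists. Of 77 groups 73 had fewer span peaks after heat, 72 above the median signal and 64 with equal lists. No paired analysis was possible because each condition has 1 library. Among the main results 37 alternative values moved and 36 did not. Among the single-group counts and the other results outside the main ones, 93 of 193 alternative values moved. A share moved when it left its interval, and a count when it changed by more than a fixed fold. Counts of genes with a gained or lost peak can only fall above the median signal. The cause was not tested. The depth behind a peak is unknown, which limits statements on weak peaks, and these make up most of the gained and lost ones.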

Other observations

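Genes for transfer RNA, which are read by RNA polymerase III from promoters inside the gene, had peaks more often after heat than in any other list. Of 625 tRNA genes 233 (37.3%, interval 33.6% to 41.1%) touched a peak after heat, 189 (30.2%, 26.8% to 34.0%) in the LD control, 130 (20.8%) after the spray, 144 in the dark, 166 at 30 min, 145 at 3 h and 106 at 24 h. By amino acid, 17 of 20 kinds had more genes with a peak after heat than in the LD control, among them those for glycine (22 against 15 of 41 genes), arginine (23 against 17 of 36) and glutamine (12 against 6 of 17), 1 kind had as many, and those for glutamate and threonine had fewer. A peak was present after heat and absent in the LD control at 82 tRNA genes, 41 of which have none in the other 5 lists, and the reverse held at 38. The gained peaks over tRNA genes were mostly weak, with 11 of 51 above the median signal. Gained peaks touched 51 genes and lost peaks 35; these numbers were 27 and 8 when peaks within 150 bp counted as shared and 11 and 8 above the median signal. The counts were chosen after the values were seen, and copies of a tRNA gene that share sequence can share reads.

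The counts above are over the gene itself. In promoter windows 105 of the 625 tRNA genes (16.8%) had a gained and 100 (16%) a lost peak, beside 8.7% and 13.2% of protein-coding genes. The spray comparison gave 83 and 89. Of 326 microRNA genes 24 (7.36%) and 19 (5.83%) did, against 21 and 31 with the spray. Of 369 small nucleolar and nuclear RNA genes 25 (6.78%) and 33 (8.94%) did, against 23 and 20. Of 3480 long noncoding RNA genes 269 (7.73%) and 425 (12.2%) did, against 287 and 357. Of 4843 pseudogenes 87 (1.8%) and 107 (2.21%) did, against 93 and 119. An LD control promoter peak was held by 66.7%, 41.1%, 84.6%, 46.3% and 11.2% of these kinds in turn.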
